A study of Homo sapiens with 33 samples.

Results

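The 10 genes described here belong to the YAP and TEAD branch of the Hippo pathway, and were taken by symbol from a deposited table of 56470 gene symbols. They are the target genes CTGF, CYR61, ANKRD1, AMOTL2, AJUBA and LATS2, the co-activators YAP1 and WWTR1 (which encodes TAZ), and the DNA-binding partners TEAD1 and TEAD4. The table uses the older symbols CTGF and CYR61 for CCN2 and CCN1. Members were taken by name, with earlier results of these data known, and all 10 passed the filter on low counts in each fit.

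Expression was measured by bulk sequencing of poly(A) RNA in SCC1, SCC6 and SCC25, established cell lines of head and neck squamous cell carcinoma. Cells received either PBS, the vehicle control, on days 0 to 5, or 100 nM cetuximab, an antibody that blocks the epidermal growth factor receptor EGFR, on days 1 to 5. No gene was altered in any group, and each line is 1 model of the disease grown without other cell types. There were 33 libraries, 1 for each line, treatment and day, except that 2 cetuximab libraries of SCC6 are both labelled day 2 (2a and 2b here) and none is labelled day 1. The labels give SCC6 a culture medium of its own and SCC1 and SCC25 different amounts of hydrocortisone, while the study's methods name the same medium for all lines. Where the media differed, line and medium cannot be told apart. Days served as the replicates. Nothing in the labels says that they were separate cultures, so the p-values measure only the spread between these libraries.

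Library totals ranged from 28508758 to 80727478 estimated counts, the highest being cetuximab-treated SCC6 of day 4. The 5 flow cells, lettered A to E, did not hold the treatments in equal parts. SCC1 with PBS on days 0 to 4 ran on B, and its other libraries on C. With the flow cell fitted, the cetuximab change of SCC1 thus rests on the day 5 library alone for PBS. SCC6 with PBS ran on C (days 0 and 1) and D, its cetuximab libraries 2a, 2b and day 3 on D, and those of days 4 and 5 on E. SCC25 ran on A except for cetuximab on days 3 to 5, which ran on B. The epithelial markers EPCAM and CDH1 were present in every library, at 56.7 CPM or more and 101 CPM or more, where CPM are normalised counts scaled to a common library size with TMM factors. The basal keratins KRT5 and KRT14 were low in PBS-treated SCC6, with means of 2.38 and 3.95 CPM. The leukocyte markers PTPRC and CD3E did not exceed 0.302 and 0.10 CPM in any library, and the endothelial marker CDH5 did not exceed 0.587 CPM. The third leukocyte marker, CD68, which is also a lysosomal protein of other cells, ranged from 3.74 to 231 CPM. In bulk samples, fewer cells of a type and less RNA per cell cannot be told apart.

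YAP and TAZ are transcriptional co-activators without a DNA-binding domain of their own. When the kinases LATS1 and LATS2 are active, they phosphorylate YAP and TAZ, which are then held in the cytoplasm or degraded. Otherwise YAP and TAZ enter the nucleus and bind TEAD proteins at the promoters and enhancers of genes for growth, matrix and the cytoskeleton. CTGF and CYR61 encode secreted matricellular proteins and ANKRD1 a nuclear ankyrin-repeat protein, and the 3 are widely used readouts of YAP activity. AMOTL2, AJUBA and LATS2 are targets whose products act back on the pathway. In squamous epithelium the pathway is known for its part in the balance between growth and differentiation.

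The RefSeq promoter table, which covers 250 bases before to 50 bases after a start listed for each gene, held 7 of the 10 members. The letters GGAATG, the core of the TEAD motif also called MCAT, were searched on both strands. They were present in 4 of these 7 promoters and in 14.0% of 35116 promoters of the same length. CTGF held the motif 3 times, ANKRD1 2 times, and YAP1 and LATS2 1 time each, the last after the start. AMOTL2, AJUBA and WWTR1 held none. The WWTR1 window, at chr3:149421011-149421310, lay inside the gene's span (chr3:149235022-149454501, minus strand) and not at its outer start. The AP-1 motif TGANTCA was in the ANKRD1 promoter and in 7.71% of all promoters. TATAAA was in the CTGF promoter and in 11.5% of all. The CArG box, bound by SRF, was in no member's promoter and in 1.29% of all. No match overlapped another. A match is a description of letters and not a measured site. The 250 bases before the start are shown for CTGF and ANKRD1, targets with repeated motifs, and for AJUBA, a target with none, because the 3 genes followed different patterns under cetuximab. They are written 5′ to 3′ along the gene's strand, with GGAATG or its reverse complement in capitals. Each sequence matched GRCh37 once, at chr6:132272513-132272762 for CTGF, chr10:92680845-92681094 for ANKRD1 and chr14:23451761-23452010 for AJUBA, all on the minus strand.
CTGF: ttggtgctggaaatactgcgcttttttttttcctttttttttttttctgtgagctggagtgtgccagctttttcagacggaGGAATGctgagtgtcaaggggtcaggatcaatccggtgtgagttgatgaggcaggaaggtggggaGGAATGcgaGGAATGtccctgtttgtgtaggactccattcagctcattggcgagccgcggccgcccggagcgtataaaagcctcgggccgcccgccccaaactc
ANKRD1: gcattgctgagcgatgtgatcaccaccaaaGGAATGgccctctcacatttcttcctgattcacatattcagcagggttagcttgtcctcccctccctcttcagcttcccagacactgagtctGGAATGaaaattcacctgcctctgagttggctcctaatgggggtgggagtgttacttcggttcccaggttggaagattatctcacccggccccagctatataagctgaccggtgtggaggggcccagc
AJUBA: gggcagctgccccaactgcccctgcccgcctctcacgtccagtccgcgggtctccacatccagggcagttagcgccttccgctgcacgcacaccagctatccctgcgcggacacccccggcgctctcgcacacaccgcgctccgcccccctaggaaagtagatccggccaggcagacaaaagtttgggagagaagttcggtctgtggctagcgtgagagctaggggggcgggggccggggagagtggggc

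Untreated cells were compared first, to learn the level of each member in each line over days 1 to 5. SCC6 stood apart in YAP1, with a mean of 3560 ± 217 CPM (SD, n = 5) against 246 ± 9.06 in SCC1 and 205 ± 10.5 in SCC25. Its 5 PBS libraries lay between 3299 and 3899 CPM, and no library of another line exceeded 257 CPM. The log2 difference was -3.86 (SE 0.07, adjusted p = 2e-17, edgeR) for SCC1 minus SCC6, and 4.12 (SE 0.07, adjusted p = 1.7e-17) for SCC6 minus SCC25. SCC6 was also higher than both other lines in WWTR1, TEAD1, AMOTL2 and LATS2. YAP1 of SCC1 lay above that of SCC25 by 0.26 (SE 0.06, adjusted p = 0.001).

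The secreted targets had another order. CTGF was highest in SCC1, at 209 ± 12.8 CPM (SD, n = 5), then SCC6 at 82.9 ± 26.0 and SCC25 at 21.7 ± 2.80. Each step passed the test, with 1.33 (SE 0.16, adjusted p = 9.6e-07) for SCC1 minus SCC6 and 1.94 (SE 0.16, adjusted p = 1e-08) for SCC6 minus SCC25 on the log2 scale. CYR61 and ANKRD1 had the same order of lines. CYR61 was 0.47 (SE 0.12, adjusted p = 0.0016) higher in SCC1 than in SCC6, a call that was lost with PBS of day 0 added (0.38, adjusted p = 0.053). ANKRD1 was 0.82 (SE 0.30, adjusted p = 0.022) higher, a call that was lost without the SCC1 library of day 5 (0.51, adjusted p = 0.1). It was also lost with PBS of day 0 added (0.82, adjusted p = 0.063). The ANKRD1 call for SCC6 against SCC25 (0.82, SE 0.30, adjusted p = 0.022) was likewise lost with PBS of day 0 added (0.83, adjusted p = 0.06). Leaving out SCC25 day 1, SCC25 day 2 or SCC6 day 3 also removed it (adjusted p of 0.058 to 0.066). The line with by far the most YAP1 RNA was thus not the line with the highest CTGF, CYR61 or ANKRD1 RNA. AJUBA was higher in SCC25 than in either other line, though not beyond the spread against SCC6 with PBS of day 0 added (-0.36, adjusted p = 0.13). TEAD4 did not differ between SCC6 and SCC25 beyond the spread (0.14, SE 0.09, adjusted p = 0.21). Members called were 9 of 10 for SCC1 against SCC6, 10 for SCC1 against SCC25 and 9 for SCC6 against SCC25. These counts stand beside 69.1%, 68.4% and 72.1% of all 19744 genes tested, so a call between lines was the common case. SCC25 shared no flow cell with the other lines here, so line and flow cell cannot be told apart for it. On flow cell C, SCC1 of day 5 and SCC6 of day 1 had 257 and 3576 CPM of YAP1 and 221 and 62.2 CPM of CTGF. The WWTR1 call for SCC1 against SCC25 (-0.15, adjusted p = 0.048) was lost with the day as a replicate block (adjusted p = 0.052). It was also lost with day 0 added (0.051), with no filter on low counts (0.16) and without any of several single libraries (0.051 to 0.14).

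Per kilobase of the canonical transcript, the order of genes within a line also differed. In SCC1 with PBS, CYR61 led with 247 CPM per kb, followed by CTGF with 89.6 and ANKRD1 with 55.6. In SCC6, YAP1 led with 659 CPM per kb, followed by CYR61 with 177. In SCC25, AJUBA with 55.1 and CYR61 with 47.0 CPM per kb led, and CTGF was second to last with 9.27. LATS2 was lowest in each line, at 9.25, 12.8 and 4.31 CPM per kb. Neighbouring genes in these orders were not tested against each other.

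The YAP1 gene lies at chr11:101981178-102104155 on the plus strand (GRCh37, GENCODE lifted from GRCh38). Because its level set SCC6 apart, the protein-coding genes within 3000 kb of it were listed after its values had been seen. Of 28 such genes 22 were tested, and 13 of these 22, YAP1 included, were higher in SCC6 than in both other lines, a share of 59.1% against 21.0% of all genes tested. All 13 were higher by at least 2 on the log2 scale in both comparisons, which held for 2.79% of all 19744 genes. Of these 13, 9 had more than 3 counts in every PBS library of all lines, and the fitted differences of the other 4 depend on the prior count. BIRC2, 237 kb from YAP1 and an inhibitor of apoptosis, was 1120 to 1590 CPM in SCC6, 80.4 to 85.2 CPM in SCC1 and 72.6 to 87.7 CPM in SCC25. Its log2 differences were 4.11 and 4.16. TMEM123, a membrane protein gene 360 kb away, had differences of 4.78 and 4.68, and DYNC2H1, a dynein heavy chain of cilia 999 kb away, of 3.69 and 3.62. On the other side, CEP126, 195 kb away, had differences of 5.05 and 3.14. C11orf70, on that side and the closest tested gene at 63 kb, had 2.42 and 0.145 (adjusted p = 0.56 against SCC25). MMP7 and MMP12 were higher than in SCC1 and did not pass against SCC25 (adjusted p = 0.83 and 0.051). MMP13, 845 kb away, was higher than in SCC1 (6.02) and lower than in SCC25 (-2.96). The matrix metalloproteinase MMP3, 733 kb away, went the other way, with -2.34 against SCC1 and -3.22 against SCC25. CASP1, which encodes caspase 1 and lies 2925 kb away, was lower by more (-6.38 and -6.40), as was its neighbour CARD16 (-6.12 and -5.31), which had 3 counts or fewer in a PBS library. CASP4 was lower than in SCC1 (-0.82), with -0.23 (adjusted p = 0.16) against SCC25. Copy number was not measured in these libraries, and the part of any structural change in these levels was not tested.

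**Figure D1:**
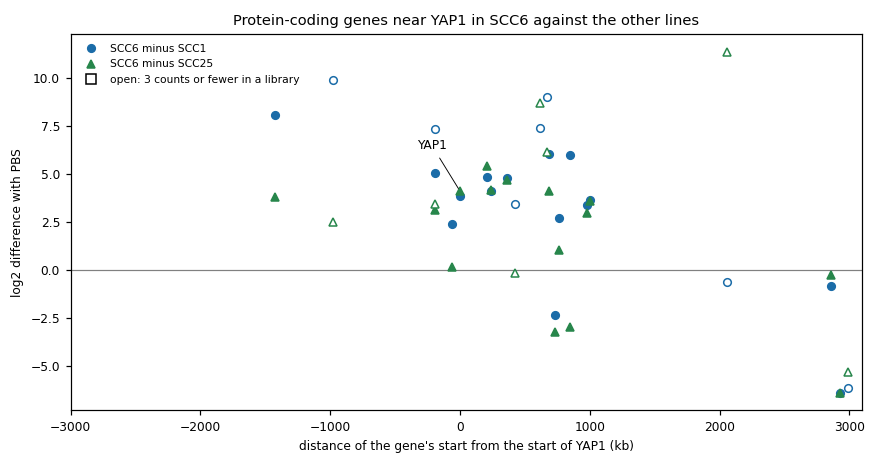
Log2 difference between PBS-treated cells of SCC6 and of SCC1 or SCC25 (y axis) against the distance from YAP1 in kb (x axis), for the 22 tested protein-coding genes within 3000 kb, with open symbols for genes at 3 counts or fewer in a PBS library. YAP1 lies at 3.86 and 4.12, near BIRC2 and TMEM123 with similar or larger differences. The closest tested gene, C11orf70, lies at 2.42 and 0.145, and MMP3 and CASP1 lie below 0 in both comparisons.

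Cetuximab was then compared with PBS within each line over days 1 to 5, with 5 libraries each, to learn which members changed with EGFR blockade. The ERK pathway genes, whose transcription follows EGFR signalling, served as the check of the drug. Of 10 tested, 8 fell in SCC1, 9 in SCC6 and 8 in SCC25, with median log2 changes of -1.62, -1.54 and -0.86. DUSP6, a phosphatase of ERK, fell in each line, with log2 changes of -3.19, -1.99 and -1.22. The members did not move as one group. In SCC1, 2 rose and 5 fell, beside 22.7% and 22.1% of 17984 genes that rose and fell. In SCC6, 5 rose and 1 fell, beside 15.6% and 14.6% of 17387 genes. In SCC25, none rose and 1 fell, beside 8.8% and 9.5% of 19101 genes. AJUBA alone rose in more than 1 line, and WWTR1 and TEAD4 each fell in 2 lines.

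CTGF changed in opposite directions in SCC1 and SCC6. In SCC1, it was 196, 216, 219, 195 and 221 CPM on days 1 to 5 with PBS, and 87.8, 121, 124, 109.8 and 100.5 CPM with cetuximab. The groups did not overlap, and CTGF fell by 0.94 on the log2 scale (SE 0.09, adjusted p = 5.5e-06). The PBS library of day 0, which is not in this test, was at 109.9 CPM and so within the cetuximab range. In SCC6, CTGF was 62.2, 95.5, 122, 76.2 and 59.0 CPM with PBS, and 87.3 (2a), 151 (2b), 238, 195 and 218 CPM with cetuximab. Library 2a lay within the PBS range and the other 4 lay above it, and CTGF rose by 1.08 (SE 0.27, adjusted p = 0.0099). In SCC25, it was 17.8 to 24.8 CPM with PBS and 16.48 to 32.99 CPM with cetuximab, with a change of 0.07 (SE 0.16, adjusted p = 0.81). SCC1 and SCC6 thus differed in direction, while SCC25 had no change beyond the spread. The difference of the changes was -2.05 (SE 0.29, adjusted p = 5.2e-06) for SCC1 minus SCC6, -1.02 (SE 0.29, adjusted p = 0.023) for SCC1 minus SCC25 and 1.03 (SE 0.29, adjusted p = 0.014) for SCC6 minus SCC25. On flow cell C alone, the SCC1 PBS library of day 5 (221 CPM) lay above all 5 cetuximab libraries. On flow cell D alone, the SCC6 PBS libraries lay between 59.0 and 122 CPM and the cetuximab libraries 2a, 2b and day 3 between 87.3 and 238 CPM.

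CYR61, the other secreted target, followed CTGF with smaller changes. In SCC1, it was 456, 557, 604, 502 and 696 CPM with PBS, and 363, 504, 461, 366 and 454 CPM with cetuximab. The groups overlapped, and CYR61 fell by 0.38 (SE 0.12, adjusted p = 0.019), a call that was lost when the PBS library of day 0 (248 CPM) was added (-0.25, adjusted p = 0.34). In SCC6, it was 332, 450.2, 454, 427 and 359 CPM with PBS, and 658, 810.4, 801, 572 and 487 CPM with cetuximab, in the order 2a, 2b and days 3 to 5 that is kept for SCC6 from here on. Each cetuximab library lay above every PBS library, and CYR61 rose by 0.70 (SE 0.15, adjusted p = 0.0051). In SCC25, the values were 94.9 to 122 CPM with PBS and 94.5 to 107 CPM with cetuximab, a change of -0.07 (SE 0.07, adjusted p = 0.49). SCC1 and SCC6 differed in this change by -1.11 (SE 0.18, adjusted p = 3.6e-05).

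ANKRD1 had the largest change of any member in SCC6. There it was 25.8, 62.9, 79.1, 59.6 and 52.6 CPM with PBS, and 81.3, 211, 327, 183 and 192 CPM with cetuximab. The groups did not overlap, and ANKRD1 rose by 1.81 (SE 0.34, adjusted p = 0.0022). In SCC1, it was 68.6, 80.8, 95.8, 76.0 and 177 CPM with PBS, and 65.1, 118, 185, 184 and 271 CPM with cetuximab. It did not pass the test there (0.74, SE 0.34, adjusted p = 0.097), but did so with the day as a replicate block (0.68, adjusted p = 0.01). With the flow cell fitted, which leaves PBS day 5 alone to set against cetuximab, its change was -0.09. On flow cell C alone, its SCC1 PBS value of 177 CPM lay within the cetuximab range. In SCC25, it ranged from 18.9 to 43.5 CPM with PBS and from 15.9 to 44.3 CPM with cetuximab (-0.05, SE 0.30, adjusted p = 0.92). The changes in SCC6 and SCC25 differed by 1.87 (SE 0.52, adjusted p = 0.012), and those in SCC1 and SCC6 did not differ beyond the spread (-1.10, SE 0.51, adjusted p = 0.14).

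AJUBA, a LIM protein that binds LATS kinases, rose in SCC1 and SCC6 alike. In SCC1, it was 192, 136, 108, 103 and 131 CPM with PBS, and 344, 338, 303, 283 and 307 CPM with cetuximab. In SCC6, it was 248, 149.5, 141, 132 and 119 CPM with PBS, and 342, 333, 306, 367 and 306 CPM with cetuximab. The groups did not overlap in either line. The PBS libraries of day 0, which are not in these tests, were at 205 CPM in SCC1 and 298 CPM in SCC6. The latter lay just below the cetuximab range of SCC6. The rise was 1.24 (SE 0.15, adjusted p = 2.9e-05) in SCC1 and 1.05 (SE 0.18, adjusted p = 0.0013) in SCC6 on the log2 scale. Each cetuximab library was above the PBS library of its day (for 2a and 2b, above the mean of PBS days 1 and 2), by 0.84 to 1.49 in SCC1 and by 0.79 to 1.47 in SCC6 on the log2 scale. SCC25 already held 211 to 247 CPM with PBS and had 211 to 291 CPM with cetuximab, a change of 0.12 (SE 0.10, adjusted p = 0.43). The change in SCC25 was smaller than in SCC1 by 1.11 on the log2 scale (SE 0.22, adjusted p = 0.00084) and than in SCC6 by 0.94 (SE 0.22, adjusted p = 0.0027). On flow cell A alone, AJUBA of SCC25 was 291 and 289 CPM with cetuximab on days 1 and 2, above all 6 PBS libraries of that line (211 to 253 CPM). AJUBA passed the test in SCC25 when the flow cell was fitted as a covariate (0.34, adjusted p = 0.017).

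AMOTL2, an angiomotin family protein that binds YAP, rose in SCC1 over days 1 to 5. It was 157, 192, 187, 181 and 204 CPM with PBS and 235, 276, 225, 227 and 290.4 CPM with cetuximab, without overlap (0.46, SE 0.09, adjusted p = 0.00094). The call was lost once the flow cell was fitted as a covariate (0.32), a fit that rests on the day 5 library alone for PBS. The changes were 0.13 (SE 0.14, adjusted p = 0.52) in SCC6 and -0.22 (SE 0.09, adjusted p = 0.095) in SCC25, and SCC1 differed from SCC25 by 0.66 (SE 0.16, adjusted p = 0.0068). SCC1 and SCC6 did not differ beyond the spread (0.30, adjusted p = 0.21). LATS2, the kinase that inhibits YAP, passed the test over days 1 to 5 in no line. Its changes were 0.01 (SE 0.07, adjusted p = 0.91) in SCC1, 0.20 (SE 0.11, adjusted p = 0.2) in SCC6 and 0.00 (SE 0.07, adjusted p = 0.97) in SCC25.

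**Figure D2:**
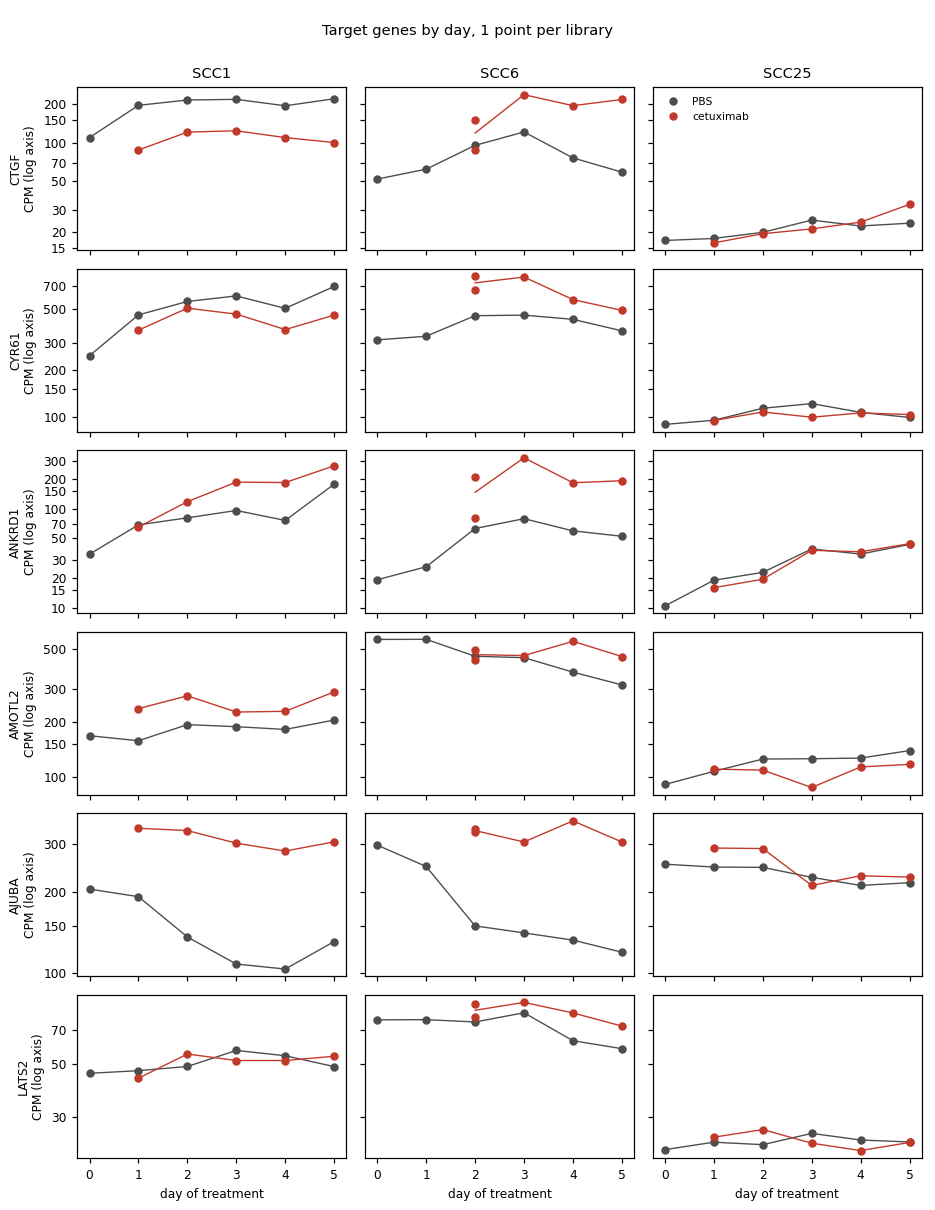
CPM (y axis, log scale) of the 6 target genes by day (x axis) in each line, with 1 point for each library and lines through the mean of each day, PBS and cetuximab apart. CTGF of SCC1 lies lower with cetuximab than with PBS on each of days 1 to 5, and AJUBA of SCC1 and SCC6 lies higher.

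YAP1 RNA changed little. In SCC1, it was 243, 234, 253, 245 and 257 CPM with PBS and 212, 212, 222, 224 and 219 CPM with cetuximab. These groups did not overlap, and YAP1 fell by 0.17 on the log2 scale (SE 0.04, adjusted p = 0.0065). In SCC6, it was 3299 to 3899 CPM with PBS and 2871 to 4349 CPM with cetuximab (-0.06, SE 0.12, adjusted p = 0.75). In SCC25, it was 190.0 to 214 CPM with PBS and 175 to 210.3 CPM with cetuximab (-0.14, SE 0.06, adjusted p = 0.12), and passed the test with the day as a replicate block (-0.14, adjusted p = 0.038) or without the cetuximab library of day 3 (-0.17, adjusted p = 0.02). The change of YAP1 did not differ between lines beyond the spread (adjusted p = 0.64).

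WWTR1 fell in both SCC1 and SCC6. It was 49.2, 48.9, 54.7, 57.1 and 50.4 CPM with PBS and 46.6, 46.5, 45.7, 45.4 and 43.4 CPM with cetuximab in SCC1. In SCC6 it was 99.5, 108, 96.7, 103 and 105 CPM with PBS and 90.8, 81.9, 81.02, 71.0 and 78.9 CPM with cetuximab. Neither line had overlapping groups. The log2 change was -0.18 in SCC1 (SE 0.05, adjusted p = 0.014) and -0.36 in SCC6 (SE 0.08, adjusted p = 0.0075). Fitting the flow cell removed the call in SCC1 (-0.13), where that fit rests on the day 5 library alone for PBS. In SCC25, WWTR1 was 54.4 to 68.3 CPM over both treatments (0.08, SE 0.07, adjusted p = 0.48), and its change differed from that in SCC6 (-0.43 for SCC6 minus SCC25, SE 0.10, adjusted p = 0.0021).

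TEAD1 rose in SCC6 and TEAD4 fell in SCC1 and SCC25. TEAD1 of SCC6 was 279.7, 338, 340, 281 and 301 CPM with PBS and 426, 432, 457, 358 and 396 CPM with cetuximab, without overlap (0.41, SE 0.10, adjusted p = 0.0083). In the other lines its change was -0.01 (SE 0.05, adjusted p = 0.88) in SCC1 and -0.02 (SE 0.06, adjusted p = 0.88) in SCC25. SCC6 differed in this from SCC1 (-0.45 for SCC1 minus SCC6, SE 0.10, adjusted p = 0.0019) and from SCC25 (0.44, SE 0.10, adjusted p = 0.003). TEAD4 of SCC25 was 25.1, 25.3, 22.2, 23.9 and 26.8 CPM with PBS and 19.7, 19.1, 13.5, 16.3 and 16.9 CPM with cetuximab. The groups did not overlap, and TEAD4 fell by 0.53 (SE 0.10, adjusted p = 0.0041), the call that was lost with the flow cell as a covariate (-0.34, adjusted p = 0.062). On flow cell A alone, both cetuximab values (19.7 and 19.1 CPM) lay below the PBS values of days 1 to 5 and close to that of day 0 (19.3 CPM). TEAD4 of SCC1 was 16.5 to 21.4 CPM with PBS and 13.9 to 16.7 CPM with cetuximab (-0.32, SE 0.08, adjusted p = 0.0066). That call was also lost with the flow cell as a covariate (-0.10), a fit that rests on PBS day 5 alone.

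**Figure D3:**
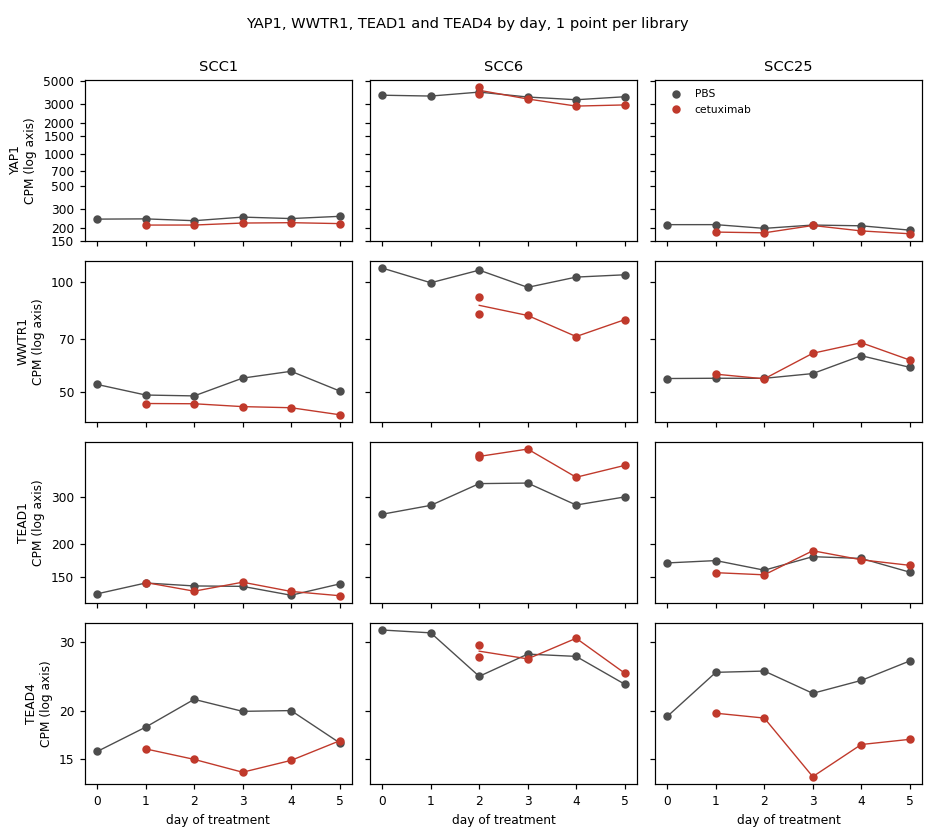
CPM (y axis, log scale) of YAP1, WWTR1, TEAD1 and TEAD4 by day (x axis) in each line, with 1 point for each library and lines through the mean of each day, PBS and cetuximab apart. YAP1 of SCC6 lies between 2871 and 4349 CPM in every library, above the 175 to 257 CPM of the other lines.

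**Figure D4:**
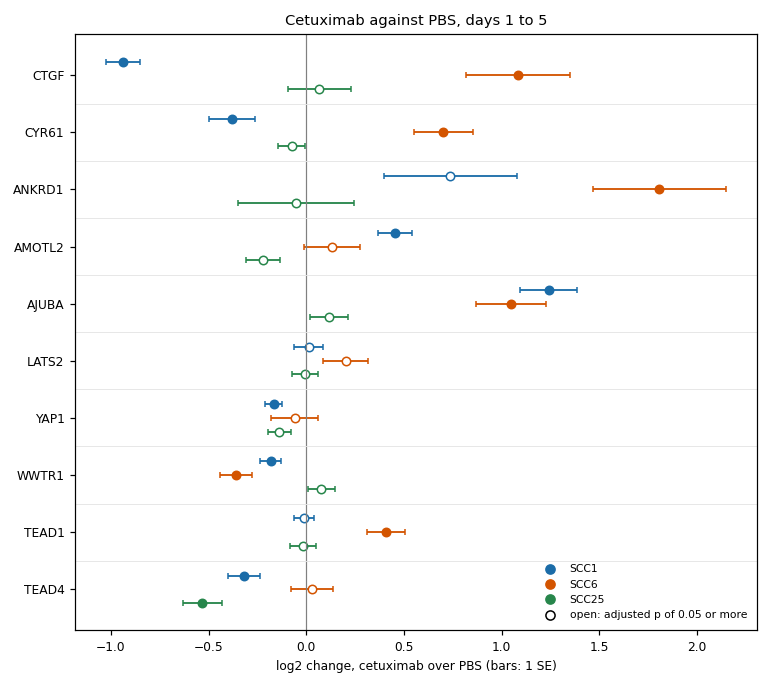
Log2 change with cetuximab over days 1 to 5 (x axis) for each member (y axis) in the 3 lines, with bars of 1 SE and filled points where the adjusted p was under 0.05. CTGF lies at -0.94 in SCC1 and at 1.08 in SCC6, and AJUBA lies above 1 in both.

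A test over all 3 lines asked whether the change of a member differed between any of them. It did for 8 of 10 members, beside 26.1% of 21414 genes. The 2 that did not pass were LATS2 (adjusted p = 0.28) and YAP1 (adjusted p = 0.64). By pair of lines, 3 members differed between SCC1 and SCC6 (19.3% of all genes), 3 between SCC1 and SCC25 (8.52%) and 7 between SCC6 and SCC25 (17.5%). Without both SCC6 libraries labelled day 2, an alternative added after the data were seen, 8 members still differed and 6 were still called in SCC6. Over all genes, 7649 of 22296 differed and 6483 of 18099 were called in SCC6 in that setting. With the flow cell as a covariate, 5 members still differed between lines, namely CTGF (adjusted p = 0.002), CYR61, ANKRD1, AJUBA and TEAD1, and AMOTL2 (0.18), WWTR1 (0.25) and TEAD4 (0.057) no longer passed.

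The change was also split into days 1 to 3 and days 4 and 5. In SCC6, 5 members were called in the first period, beside 20.3% of all 19150 genes, and 7 in the second, beside 37.8%. On days 4 and 5 of SCC6, cetuximab ran on flow cell E only and PBS on D only. Drug and flow cell cannot be told apart in that period. AMOTL2 (0.53, SE 0.16, adjusted p = 0.021) and LATS2 (0.35, SE 0.12, adjusted p = 0.038) were higher with cetuximab than with PBS in the second period of SCC6. LATS2 with cetuximab was 79.2 to 91.2 CPM in the first period and 82.4 and 72.5 CPM on days 4 and 5. With PBS it went from 75.5 to 82.5 CPM down to 62.9 and 58.2 CPM. AMOTL2 with cetuximab was 436 to 492 CPM and then 549 and 453 CPM. With PBS it went from 447 to 563 CPM down to 372 and 317 CPM. CTGF of SCC6 had a change of 0.74 (SE 0.31, adjusted p = 0.12) in the first period and rose by 1.61 (SE 0.39, adjusted p = 0.0089) in the second. In SCC1, 5 members were called in each period, beside 29.6% and 29.9% of all genes. In SCC25, edgeR called no member in either period, beside 7.84% and 2.71% of all genes, and 1 member, TEAD4, had an unadjusted p under 0.05 in each. When the difference of the periods was itself tested, no member passed in any line, and nor did any gene (0% in SCC1, 0% in SCC6 and 0% in SCC25, edgeR). At an unadjusted p under 0.05 there were 1458, 5626 and 599 genes, and DESeq2 called 31, 2838 and 3 genes. In SCC6, CTGF had a difference of 0.86 (SE 0.49, adjusted p = 0.26) and AMOTL2 one of 0.65 (SE 0.20, adjusted p = 0.094).

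Members also moved with days in culture without the drug. Over PBS days 0 to 5 (6 libraries a line), the slope per day on the log2 scale passed for 1 member in SCC1, a rise, beside 2.15% of genes that rose and 1.07% that fell. In SCC6, 3 members fell, beside 16.5% that rose and 21.9% that fell. In SCC25, 3 members rose, beside 8.7% that rose and 4.72% that fell. ANKRD1 rose in SCC25 by 0.39 per day (SE 0.05, adjusted p = 0.00011), from 10.4 CPM on day 0 to 43.5 CPM on day 5. It rose in SCC1 by 0.35 per day (SE 0.07, adjusted p = 0.038), from 34.7 to 177 CPM. ANKRD1 lost that call without any 1 of days 0, 1, 2, 3 and 5. It also lost it with the flow cell fitted (0.26), where day 5 alone ran on flow cell C. In SCC6, its slope was 0.31 (SE 0.11, adjusted p = 0.052), and -0.07 once the flow cell was fitted. AJUBA of SCC6 fell by 0.28 per day (SE 0.04, adjusted p = 0.0016), from 298 to 119 CPM, and AMOTL2 fell by 0.18 (SE 0.03, adjusted p = 0.0017), from 562 to 317 CPM. Once the flow cell was fitted, AJUBA lost its call (-0.12, adjusted p = 0.069) and AMOTL2 kept it (-0.17, adjusted p = 0.039). LATS2 of SCC6 fell by 0.09 (SE 0.03, adjusted p = 0.046), a call that was lost with no filter, with the flow cell and without any 1 of days 0, 1, 4 and 5 (adjusted p of 0.051 to 0.3). In SCC25, CTGF rose by 0.10 per day (SE 0.03, adjusted p = 0.017) and AMOTL2 by 0.11 (SE 0.02, adjusted p = 0.0031), and both lost the call without day 0 (adjusted p = 0.12 and 0.058). YAP1, WWTR1, TEAD1 and TEAD4 passed in no line.

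**Figure D5:**
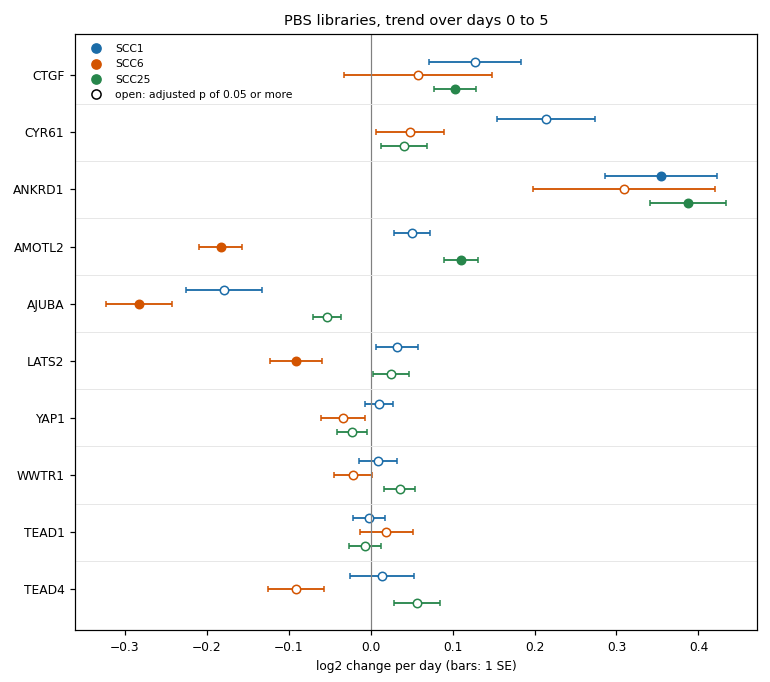
Log2 slope per day with PBS over days 0 to 5 (x axis) for each member (y axis) in the 3 lines, with bars of 1 SE and filled points where the adjusted p was under 0.05. ANKRD1 lies at 0.35 in SCC1, 0.31 in SCC6 and 0.39 in SCC25, and AJUBA of SCC6 lies at -0.28.

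Other genes of the pathway were taken from lists, also chosen with earlier results of these data known. Of 16 other conserved YAP and TAZ targets, 8 rose and 6 fell in SCC1, 9 rose and 3 fell in SCC6, and 4 rose and 3 fell in SCC25. Their median log2 changes were 0.08, 0.59 and -0.07, beside 0.02, 0.00 and 0.01 over all genes. TGFB2, a TGF-β ligand, rose by 2.67, 4.49 and 1.16 in SCC1, SCC6 and SCC25. NT5E, the ectonucleotidase CD73, fell in each, with -3.18, -2.07 and -0.62. AXL, a receptor tyrosine kinase, fell in SCC1 (-1.18) and SCC25 (-0.62) and rose in SCC6 (0.59), the same directions as CTGF in SCC1 and SCC6. Of 21 Hippo kinases and regulators tested in each line, 3 rose and 9 fell in SCC1, 8 rose and 2 fell in SCC6, and 1 rose and 3 fell in SCC25. STK4, the kinase MST1 that acts above LATS, fell in all 3 lines (-0.38, -0.57 and -0.25). Of 5 other TEAD and VGLL genes, 2 rose in SCC1, 2 in SCC6 and 1 in SCC25. TEAD2 of SCC6 rose by 1.85, from 7.72 to 13.2 CPM with PBS to 22.3 to 57.9 CPM with cetuximab.

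The targets of SRF and its partners MRTF, actin-regulated factors that share some target genes with YAP, also differed between lines. In SCC6, 12 of 14 rose and none fell, with a median change of 1.47. In SCC25, 5 of 14 rose and none fell (median 0.09), and in SCC1, 3 of 12 rose and 6 fell (median -0.14). The change differed between lines for 13 of 14, beside 26.1% of all genes. TAGLN, an actin-binding protein, rose in SCC6 by 4.11, from 14.2 to 17.7 CPM with PBS to 93.0 to 439 CPM with cetuximab. ACTA2, smooth muscle actin, fell in SCC1 (-1.18) and rose in SCC6 (1.71) and SCC25 (1.19). Of 8 cell division genes, 6 fell in SCC1, none passed in SCC6 and 5 fell in SCC25, with medians of -0.47, -0.22 and -0.29. On days 4 and 5 of SCC6, 5 of 8 fell (median -0.47), beside 37.8% of all genes called in either direction.

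Markers of several cell types moved with cetuximab beside these changes. The sum of 7 squamous markers was 1500 to 2520 CPM with PBS and 5310 to 7300 CPM with cetuximab in SCC1, where mean KRT5 was 549 and 3261 CPM. It was 1070 to 2420 and 872 to 1120 CPM in SCC6, and 11500 to 16900 and 13200 to 15700 CPM in SCC25. Of these 7 markers, 5 rose and 1 fell in SCC1, 2 rose and 2 fell in SCC6, and 1 rose and 1 fell in SCC25. Over all genes, 22.7%, 15.6% and 8.8% rose in SCC1, SCC6 and SCC25, and 22.1%, 14.6% and 9.5% fell. The sum of 6 fibroblast markers, mainly the collagens COL1A1 and COL1A2, was 20.9 to 32.7 and 49.1 to 145 CPM in SCC1, 2.82 to 6.64 and 8.79 to 97.2 CPM in SCC6, and 116 to 139 and 148 to 233 CPM in SCC25. DCN and THY1, which also mark fibroblasts, were at 0 in some libraries. Of the fibroblast markers tested, 3 of 3 rose in SCC1 and 2 of 2 in SCC6. In SCC25, 2 of 6 rose and 1 fell. CD68, the 1 leukocyte marker tested, fell in SCC1 (-2.15), SCC6 (-1.89) and SCC25 (-0.32). The sum of 3 leukocyte markers was 17.3 to 48 CPM with PBS and 6.33 to 9.56 CPM with cetuximab in SCC1, 16.6 to 32.1 and 3.89 to 7.19 CPM in SCC6, and 166 to 231 and 145 to 174 CPM in SCC25. Of the striated muscle markers tested, 3 of 3 rose in SCC1 (median 1.95), 1 of 2 in SCC6 and 1 of 2 in SCC25. Their sum over 5 genes was 7.89 to 10.9 and 12.2 to 14.7 CPM in SCC1, 3.37 to 5.43 and 5.67 to 7.34 CPM in SCC6, and 14.2 to 18.5 and 16.1 to 21.3 CPM in SCC25, while MYH6 and MYH7 did not exceed 0.0753 and 0.042 CPM. Of the endothelial markers tested, none passed in SCC1 (0 of 2), SCC6 (0 of 1) or SCC25 (0 of 2). The part of these shifts in the members' changes was not tested.

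Over all 33 libraries, after the mean of each line was removed from log2 CPM, CTGF varied with CYR61 (r = 0.72) and ANKRD1 (r = 0.64), and CYR61 with ANKRD1 (r = 0.69). CTGF and AJUBA had r = -0.12, and AJUBA and WWTR1 had r = -0.69. Among 9927 genes, those most like CTGF were CDR2 (r = 0.88), UBE2J1 (0.86) and SPECC1L (0.85), and those most like CYR61 were CPPED1 (0.85), SPTAN1 (0.82) and TMEM39A (0.81). The libraries of a line share treatments, days and flow cells, so these correlations are descriptions. CTGF overlaps LINC01013, LATS2 overlaps LATS2-AS1 and WWTR1 overlaps WWTR1-AS1 on the opposite strand. The kit kept strand, but whether the counting used it is not stated.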

How the data were processed

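Poly(A) RNA was sequenced from 33 libraries with a stranded kit (paired reads of 100 bases). The values, as deposited by the authors, are estimated counts per gene symbol, which they made with Salmon and tximport without normalisation between libraries. The submitters' processing notes name Salmon 0.8.2 and hg19. The annotation is not given in the sources used here. Of all values, 63.2% were whole numbers, with a tolerance of 0.

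After rounding to integers, edgeR 4.0.16 (R 4.3.3) was run with filterByExpr for low counts and TMM scaling. The quasi-likelihood F test was fitted over all genes, two-sided, with Benjamini-Hochberg adjustment and calls at an adjusted p under 0.05. The SE is the log2 change divided by the root of F. CPM used TMM factors over all libraries, with a pseudocount of 0.1 CPM for daily ratios. Library totals ranged from 28508758 to 80727478, and the counts a gene receives limit its precision. Fits covered cetuximab against PBS per line, the line-by-treatment terms, PBS lines, periods and PBS trends. The study names DESeq2, without a design, and DESeq2 1.42.0 was an alternative here, beside DESeq2 size factors, no filter, a log2 change of at least 1, the day as a block, day 0 added, the flow cell as a covariate and each library left out. Figures and joins used Python 3.11.15, numpy 2.4.6, pandas 2.3.3 and matplotlib 3.10.9.

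Day labels match the treatments by day in SCC1 and SCC25. Deviations of same-day libraries from their group means were correlated across genes. In SCC1, r was 0.384, 0.367, 0.174, 0.167 and 0.11 on days 1 to 5. In SCC25, it was 0.218, 0.564, 0.53, 0.505 and 0.586. Cetuximab days 3, 4 and 5 of SCC1 correlated more with PBS of days 5, 5 and 4 (r = 0.225, 0.354 and 0.13). Cetuximab day 1 of SCC25 correlated more with PBS day 2 (r = 0.639). Same-day libraries were thus not set apart on every day, and the main tests did not use the day. Libraries 2a and 2b, compared as possible duplicates among the 5 cetuximab libraries of SCC6, differed beyond sampling noise. The named genes are the 10 members, and list genes called in all 3 lines or, per list, the 2 with the largest change in a line, with some of these left out. The members and lists were chosen with earlier results of these data known. Promoters came from RefSeq (GRCh38.p14) and were matched to GRCh37. Gene positions came from a GENCODE annotation lifted to GRCh37.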

Additional observations from a re-analysis of the deposited data

Results flagged for a closer look

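Of 60 groups of 5 libraries examined, 1 for each member, line and treatment, 4 held a library far from the other 4, where chance gives about 1 in 20. ANKRD1 of PBS-treated SCC1 was 177 CPM on day 5, against 68.5 to 95.8 CPM on the other days. The day 5 library ran on flow cell C and the others on B. AMOTL2 of cetuximab-treated SCC25 was 87.2 CPM on day 3, against 108 to 117 CPM. AJUBA of PBS-treated SCC6 was 248 CPM on day 1, against 119 to 149.5 CPM. That library ran on flow cell C and the others of its group on D. TEAD1 of PBS-treated SCC1 was 128 CPM on day 4, against 138 to 142 CPM. The flagged AMOTL2 and TEAD1 libraries shared a flow cell with others of their group.

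The change with cetuximab differed between lines in the edgeR line-by-treatment test for 8 members. The adjusted p was 1.6e-05 for CTGF, 7.6e-05 for CYR61, 0.022 for ANKRD1, 0.0082 for AMOTL2, 0.00044 for AJUBA, 0.0036 for WWTR1, 0.0013 for TEAD1 and 0.006 for TEAD4. CTGF was lower with cetuximab on 5 of 5 days in SCC1. In SCC6, the cetuximab libraries of days 3 to 5 lay above the PBS library of their day. Libraries 2a and 2b (87.3 and 151 CPM) lay above the mean of PBS days 1 and 2, but 2a lay below PBS day 2 (95.5 CPM).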

How the results depend on the processing

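Calls of members changed with some settings, and the cause was not tested. With a log2 change of at least 1 required, 1, 3 and 0 members were called in SCC1, SCC6 and SCC25. With the flow cell as a covariate, 4 were called in SCC1, 5 differed between lines and 1 had a trend in SCC6. With the day as a replicate block, 2 were called in SCC25. For the SCC6 periods, DESeq2 called 1 member and the fit without a filter called 3. For the SCC1 trend, DESeq2 called 3, no filter 2 and days 1 to 5 alone 0. For the SCC25 trend, days 1 to 5 alone called 1.

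When each library was left out in turn, members called ranged from 7 to 8 in SCC1 and from 1 to 2 in SCC25, and the lines differed for 7 to 8 (7 without SCC6 cetuximab day 3, where ANKRD1 had an adjusted p of 0.055). PBS line calls ranged from 8 to 10 (SCC1 and SCC6), 9 to 10 (SCC1 and SCC25) and 8 to 9 (SCC6 and SCC25). Trend calls ranged from 0 to 1 in SCC1, 2 to 5 in SCC6 and 1 to 3 in SCC25 (1 without day 0).

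Changes that reversed in sign passed no test. With the flow cell as a covariate they were -0.09 for ANKRD1 of SCC1, 0.09 for YAP1 of SCC6, -0.27 for CTGF, 0.10 for LATS2 and -0.05 for WWTR1 of SCC25, and a trend of -0.07 for ANKRD1 of SCC6. With day 0 added they were -0.02 for TEAD4 of SCC6, and 0.13 for ANKRD1 and 0.03 for LATS2 of SCC25. With 1 library left out they were -0.01 to -0.02 for LATS2 and 0.00017 for TEAD1 of SCC1, 0.0025 and 0.0028 for YAP1 and -0.02 to -0.0039 for TEAD4 of SCC6. In SCC25 they were -0.09 for CTGF, 0.04, 0.09, 0.11 and 0.13 for ANKRD1, 0.0005, 0.01, 0.02 and 0.03 for LATS2, and 0.001, 0.0043, 0.02 and 0.03 for TEAD1. ANKRD1 of SCC1 was called without cetuximab day 1 (0.94, adjusted p = 0.018) or PBS day 5 (1.03, adjusted p = 0.018).

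Over single-gene results outside leave-one-out, 457 kept direction and side of the threshold, 33 lost the call, 8 gained it and 9 reversed. In SCC6, same-day correlations were 0.582, -0.179 and -0.00282 on days 3 to 5, so comparisons of its libraries by day are descriptions. All-gene counts moved by over 1.5 times with a log2 change of at least 1 (1572, 1687 and 300 against 8061, 5238 and 3496 in SCC1, SCC6 and SCC25), and with the flow cell in SCC1 (4197), SCC25 (1417), between lines (3080 against 5586), the SCC6 trend (786 against 5736) and the SCC1 trend (1806 against 351 higher and 175 lower). The period test gave 31, 2838 and 3 genes with DESeq2, 202, 3366 and 7 without a filter and 209 in SCC25 with the flow cell, against 0. The SCC1 trend gave 1528 with DESeq2, and days 1 to 5 alone gave 98 genes in SCC1, 2160 in SCC6 and 1223 in SCC25 (2317 with day 0). With 1 library left out, they reached 2193 in SCC25 (without cetuximab day 4, also 2204 without PBS day 2, 2278 without PBS day 3 and 2221 without cetuximab day 5). For the SCC1 trend they were 98, 25, 298, 267, 57 and 1732 without days 0 to 5 in turn, and for the SCC6 trend 2160, 3780 and 3296 without days 0, 1 and 5. For the SCC25 trend they were 1223 and 1291 without days 0 and 5. For the SCC6 periods they were 1424 and 973 without PBS day 1 or day 3, 2 without cetuximab day 5 and 1 without PBS day 5, and for the SCC25 periods 2 without cetuximab day 3. The flow cell could not be fitted for the SCC6 periods and the SCC25 trend, and was not fitted for the PBS lines.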
